A study of Mus musculus with 6 samples.

Results

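The tumour suppressor p53 (gene Trp53), its MDM regulators Mdm2 and Mdm4, and 6 core direct targets, Cdkn1a, Ccng1, Zmat3, Sesn1, Phlda3 and Rrm2b, were followed in mouse liver tumour cells with and without knockdown of the splicing factor gene Sf3b3. These 9 genes are 9 of the 11866 genes in the deposited table, and all 9 are among the 10770 genes with a mean of at least 1 FPKM (fragments per kilobase of gene, scaled to the size of the library). The cells were HCC3-4, a line obtained from liver tumours of MYC transgenic mice. KD cells stably carried a short hairpin against Sf3b3, PLKO cells stably carried the pLKO.1-TRC control vector, and poly(A) RNA of 3 libraries per group, numbered 1 to 3, was sequenced. The hairpin's sequence and number, and any tie of a library to its own culture, were not given in the sources used here. Spread and p-values below are therefore those between libraries, which may be technical. The 9 genes were chosen by their FPKM in these KD and PLKO libraries as well as by their roles, since the selection rule named a higher Mdm2 and a lower Rrm2b in KD. Their differences between the groups are therefore described with their errors and given no p-value, and where members are counted among the called genes, the count stands beside that of all genes and supports nothing.

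p53 is a transcription factor that accumulates after DNA damage and other stress and switches on genes for cell cycle arrest, repair and cell death. MDM2 is a ubiquitin ligase that marks p53 for degradation and is itself a p53 target, which closes a feedback loop, while its paralog MDM4 binds and restrains p53. In the liver, loss of p53 is a common step of tumour growth, and Mdm4 is known for a spliced form without an inner exon that arises when the splicing machinery is disturbed. The table gives 1 value per gene, so isoforms, protein levels and the mutation state of Trp53 were not measured.

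The promoter windows of RefSeq (build GRCm38.p6), each with 250 bases before and 50 after an annotated start, hold 10 windows for 7 of the 9 genes, all but Zmat3 and Rrm2b. They were searched for the p53 response element, a run of 20 bases made of 2 copies of a decamer back to back, with at most 2 bases departing from the consensus. The consensus is its own reverse complement, so a search of 1 strand covers both. A match occurs in 262 of all 32851 windows, or 0.798%. It occurs in 2 of the members' 10 windows, 1 of Cdkn1a and 1 of Ccng1, and each fits in 19 of 20 bases; the limit on departures was chosen after these windows had been seen. The other 8 windows came no closer than 3 to 6 departing bases, which says only that these letters are not in those windows. The stretches before the start of both genes with a match and of Mdm2 are shown because Cdkn1a and Ccng1 hold the matches and Mdm2, described next, holds none. Capitals mark the match, and each stretch ends before the gene's first annotated exon in GENCODE M21.
Cdkn1a, upstream start, chr17:29090729-29090975, plus strand: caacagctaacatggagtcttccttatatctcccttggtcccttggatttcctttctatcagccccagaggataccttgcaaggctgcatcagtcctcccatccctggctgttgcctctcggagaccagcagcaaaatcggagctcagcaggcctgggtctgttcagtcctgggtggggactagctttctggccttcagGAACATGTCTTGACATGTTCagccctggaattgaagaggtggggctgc
Ccng1, chr11:40755312-40755536, minus strand: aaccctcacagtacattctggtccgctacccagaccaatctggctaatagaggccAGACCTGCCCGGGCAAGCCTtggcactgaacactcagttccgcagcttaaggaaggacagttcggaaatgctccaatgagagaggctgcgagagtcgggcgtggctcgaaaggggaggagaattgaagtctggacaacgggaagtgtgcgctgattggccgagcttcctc
Mdm2, chr10:117710759-117711008, minus strand: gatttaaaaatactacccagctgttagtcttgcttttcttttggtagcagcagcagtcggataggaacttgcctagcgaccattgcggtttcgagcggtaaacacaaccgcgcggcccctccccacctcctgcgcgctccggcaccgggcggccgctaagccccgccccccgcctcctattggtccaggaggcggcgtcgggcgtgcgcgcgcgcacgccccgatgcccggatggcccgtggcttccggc
The match of Cdkn1a covers bases 29090928 to 29090947 of chromosome 17, from 51 to 32 bases before the upstream start, and that of Ccng1 covers bases 40755462 to 40755481 of chromosome 11, from 195 to 176 bases before the start. Neither lies in an annotated exon. The other window of Cdkn1a, at its start at base 29093769, holds no match and came no closer than 5 departing bases. A match is a description of sequence, and binding of p53 was not measured.

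Between 15140441 and 17566101 reads per KD library, and between 16179939 and 17463788 per PLKO library, fell on listed genes, as recovered from the deposited values. Sf3b3, the targeted gene, had 10.3, 9.56 and 13.9 FPKM in KD 1, 2 and 3, against 22.6, 28.7 and 29.2 FPKM in PLKO 1, 2 and 3, a log2 fold change of -1.26 (SE 0.23; limma adjusted p = 0.0372); this call, like all others, was lost without PLKO 1, PLKO 2, KD 1 or KD 2. Over all tested genes 314 were called (limma, Benjamini-Hochberg adjusted p under 0.05), and the groups did not overlap for 32.1% of the tested genes. The libraries numbered 3 stood apart: their deviations from the group means correlated at 0.50 across genes, and at -0.28 to -0.43 with those of the other numbers in the other group. Of 10 hepatocyte markers Afp, Krt8 and Krt18 are listed, with a sum of 52.6 to 86.9 FPKM in KD against 59.7 to 86.7 FPKM in PLKO, and Alb, Apoa1, Ttr, Hnf4a, Serpina1a, Fgb and Tf are not. Afp (1.40 FPKM in KD against 0.389 FPKM in PLKO) and Krt18 (9.11 FPKM in KD against 5.95 FPKM in PLKO) were higher in KD without overlap. Krt8 overlapped, at 62.7 FPKM in KD against 68.2 FPKM in PLKO. Afp had 15 to 23 reads per PLKO library and a mean under 1 FPKM, so it was not tested. The 3 listed of 6 markers of cholangiocytes or other epithelium summed to 134 to 253 FPKM in KD against 109 to 237 FPKM in PLKO. Of 6 leukocyte markers Cd68 and Cd79a are listed, with a sum of 46.9 to 98.9 FPKM in KD against 10.1 to 42.2 FPKM in PLKO, while Ptprc, Adgre1, Cd3e and Lyz2 are not listed. The 4 listed of 6 fibroblast markers summed to 39.8 to 66.5 FPKM in KD against 94.6 to 144 FPKM in PLKO. All 4 were lower in KD without overlap, Cd68 and Cd79a were higher without overlap, and the 3 epithelial markers overlapped. Cd79a had at most 20 reads in a PLKO library. The fibroblast marker Col1a2 had 16 to 34 reads per KD library and a mean under 1 FPKM, so it was not tested. Another, Col1a1, averaged 0.754 FPKM in KD and 1.51 FPKM in PLKO. No endothelial marker of 5 is listed. In bulk RNA, fewer cells of a type and less RNA per cell cannot be told apart, and the part of these markers in the results below was not tested.

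Trp53 had the highest FPKM of the 9 genes in both groups. It had 142, 130.3 and 84.4 FPKM in KD 1, 2 and 3, against 69.5, 91.0 and 77.2 FPKM in PLKO 1, 2 and 3. The groups overlap, since KD 3 lies below PLKO 2, and KD 1 and KD 2 lie above every PLKO library. The mean was 118.9 ± 30.4 FPKM in KD and 79.3 ± 10.9 FPKM in PLKO (SD, n = 3 each), a log2 difference of 0.56 (SE 0.24). The gene (ENSMUSG00000059552.13) spans bases 69580359 to 69591873 of chromosome 11 (GRCm38, plus strand) and was covered by 4945 to 8877 reads per library. Matched by number, KD minus PLKO was 1.03, 0.52 and 0.13 on the log2 scale for libraries 1, 2 and 3. No label pairs the libraries by number, so matched values here and below are a description.

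Mdm2 was higher in every KD library than in any PLKO library. It had 35.7, 29.0 and 28.2 FPKM in KD 1, 2 and 3, against 15.2, 15.3 and 16.5 FPKM in PLKO 1, 2 and 3. The coefficient of variation was 13.3% in KD and 4.71% in PLKO, where the libraries were close together. Its mean was 31.0 ± 4.12 FPKM in KD and 15.7 ± 0.739 FPKM in PLKO (SD, n = 3 each), a log2 difference of 0.98 (SE 0.19), or 1.97-fold. This is rank 525 from the top among the differences of the 10770 tested genes. Mdm2 (ENSMUSG00000020184.15; chromosome 10, 117688875 to 117710758, minus strand) has 9 annotated transcripts. The deposited value sums over these transcripts, so the p53-responsive inner promoter and the constitutive outer one, whose window is printed above, are not separated.

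Mdm4, the paralog that binds p53 but is a weak ubiquitin ligase on its own, differed less between the groups than within them. It had 8.36, 6.60 and 5.72 FPKM in KD 1, 2 and 3, against 5.43, 7.56 and 6.06 FPKM in PLKO 1, 2 and 3. The means were 6.89 ± 1.35 FPKM in KD and 6.35 ± 1.09 FPKM in PLKO (SD, n = 3 each), a log2 difference of 0.11 (SE 0.24). The gene (ENSMUSG00000054387.13; chromosome 1, 132959484 to 133030561, minus strand) has 14 annotated transcripts, which are summed in the value, so a change of isoform at an equal total would not show. It overlaps Gm29257 on the opposite strand, and since the use of strand is not given, reads of the 2 cannot be told apart.

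**Figure D1:**
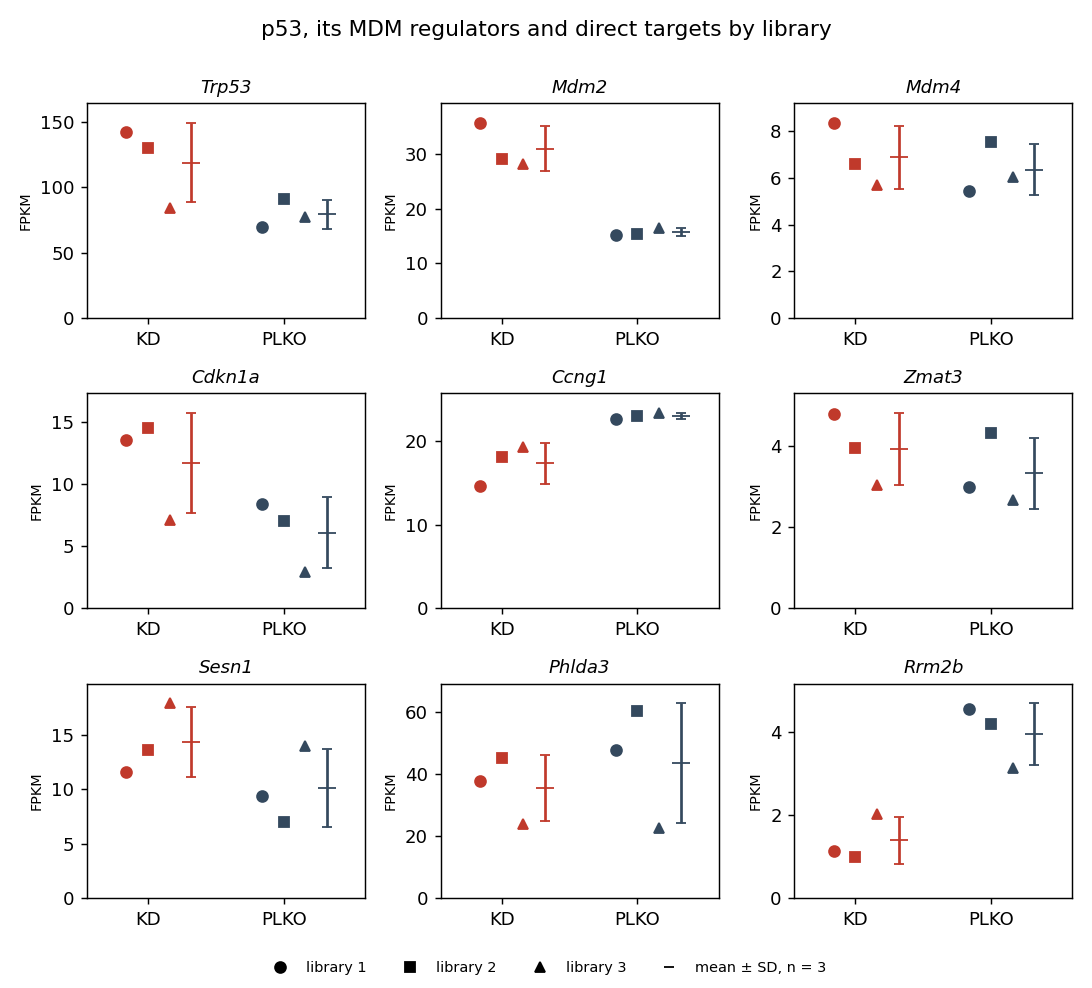
FPKM of the 9 genes in each library (points, shaped by library number; red KD, dark PLKO) with the group mean and SD (n = 3) at the right of each group; each panel has its own axis from 0. The 3 KD points of Mdm2 sit between 28.2 and 35.7 FPKM and the PLKO points between 15.2 and 16.5 FPKM, while Rrm2b and Ccng1 lie lower in all KD libraries than in any PLKO library.

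Cdkn1a encodes p21, the inhibitor of cyclin-dependent kinases through which p53 stops the cell cycle. It had 13.5, 14.5 and 7.07 FPKM in KD 1, 2 and 3, against 8.35, 7.02 and 2.88 FPKM in PLKO 1, 2 and 3. KD 3 falls among the PLKO libraries, and library 3 was the lowest of both groups. The mean was 11.7 ± 4.02 FPKM in KD and 6.08 ± 2.85 FPKM in PLKO (SD, n = 3 each), a log2 difference of 1.01 (SE 0.43). Matched by number, KD exceeded PLKO by 0.70, 1.04 and 1.30 on the log2 scale for libraries 1, 2 and 3. No label gives this pairing. Without PLKO 3 the log2 difference was 0.54. The reads per library ran from 439 to 812 in KD and from 160 to 535 in PLKO. The gene (ENSMUSG00000023067.14; chromosome 17, 29090976 to 29100727, plus strand) overlaps AC167363.2 on the opposite strand.

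Ccng1, the target that encodes cyclin G1 and recruits a phosphatase to MDM2, was lower in all KD libraries. It had 14.7, 18.1 and 19.3 FPKM in KD 1, 2 and 3, against 22.7, 23.1 and 23.4 FPKM in PLKO 1, 2 and 3. The groups do not overlap, and the PLKO values spread by 1.48% of their mean. The mean was 17.4 ± 2.41 FPKM in KD and 23.1 ± 0.341 FPKM in PLKO (SD, n = 3 each), a log2 difference of -0.42 (SE 0.20). The gene (ENSMUSG00000020326.7) spans bases 40748552 to 40755311 of chromosome 11, minus strand. Cdkn1a and Ccng1, the members whose promoter windows hold a p53 element match, had differences of opposite sign. The groups of Cdkn1a overlap, and the part of the matches in these differences was not tested.

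Rrm2b had the largest difference of the 9 genes, and it was downward. It encodes the p53-inducible small subunit of ribonucleotide reductase, which supplies deoxynucleotides for repair outside S phase. The gene had 1.15, 1.00 and 2.04 FPKM in KD 1, 2 and 3, against 4.56, 4.20 and 3.13 FPKM in PLKO 1, 2 and 3. The groups do not overlap, and library 3 is the highest of KD and the lowest of PLKO. On average it had 1.40 ± 0.563 FPKM in KD and 3.96 ± 0.744 FPKM in PLKO (SD, n = 3 each), so KD stood at 35.2% of PLKO. The log2 difference was -1.56 (SE 0.35), rank 119 from the bottom of the 10770 tested genes. It was -1.99, -2.07 and -0.62 for libraries 1, 2 and 3 matched by number, and -2.03 without both libraries numbered 3. Reads numbered 160, 143 and 325 in KD 1, 2 and 3, against 753, 639 and 451 in PLKO 1, 2 and 3. The gene (ENSMUSG00000022292.16; chromosome 15, 37923952 to 37961318, minus strand) overlaps Gm3362 on the same strand and Gm49085 on the opposite one.

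Zmat3, Sesn1 and Phlda3 had groups that overlap. Zmat3, a zinc finger protein that binds RNA and acts in growth suppression by p53, had 4.81, 3.97 and 3.03 FPKM in KD 1, 2 and 3, against 3.00, 4.33 and 2.68 FPKM in PLKO 1, 2 and 3, a log2 difference of 0.24 (SE 0.30). Sesn1, a sestrin that restrains mTORC1, had 11.5, 13.6 and 17.9 FPKM in KD 1, 2 and 3, against 9.35, 6.97 and 14.0 FPKM in PLKO 1, 2 and 3. Its log2 difference was 0.54 (SE 0.29), and each KD library exceeded the PLKO library of its number, by 0.30, 0.96 and 0.36. No label gives this pairing. Matched in the same way, the differences were 0.68, -0.13 and 0.18 for Zmat3 and -0.35, -0.42 and 0.10 for Phlda3. Phlda3, a small PH domain protein that competes with AKT for membrane lipid, had 37.6, 45.1 and 24.0 FPKM in KD 1, 2 and 3, against 47.9, 60.4 and 22.5 FPKM in PLKO 1, 2 and 3. Library 3 was the lowest of both groups for Phlda3 and for Zmat3 and the highest of both for Sesn1. The log2 difference of Phlda3 was -0.22 (SE 0.38), and its sign turned without PLKO 2 (0.07) and without KD 3 (0.03). Zmat3 (ENSMUSG00000027663.12) spans bases 32334792 to 32366014 of chromosome 3 (minus strand), Sesn1 (ENSMUSG00000038332.13) bases 41809935 to 41908424 of chromosome 10 (plus strand, overlapping 9930024M15Rik on the same strand), and Phlda3 (ENSMUSG00000041801.5) bases 135766119 to 135769136 of chromosome 1 (plus strand).

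**Figure D2:**
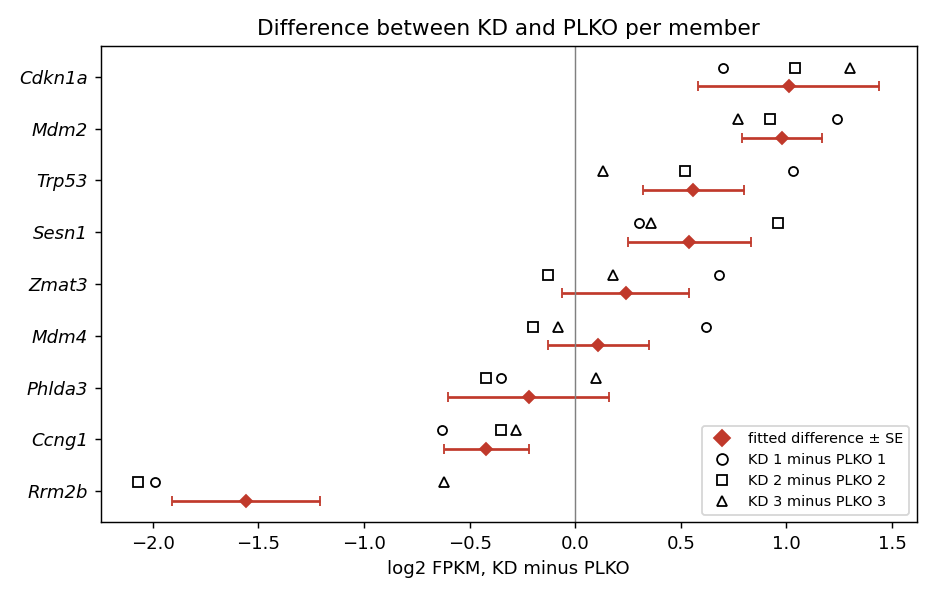
Log2 FPKM difference, KD minus PLKO, of each gene: the fitted difference with its SE (red diamonds) and the difference of the libraries of equal number (open points). Cdkn1a and Mdm2 lie near 1, Rrm2b at -1.56, and the number-matched points of Mdm4, Zmat3 and Phlda3 fall on both sides of 0.

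Over the 9 genes, 6 had a positive and 3 a negative log2 difference, with a median of 0.24, against a median of -0.04 over all 10770 tested genes, of which 5133 were positive. Mdm2 was the 1 member among the genes called by limma, beside a background of 2.92% of tested genes called (1.12% higher and 1.79% lower in KD). With the replicate number as a block, 3 members were among the called genes, Mdm2 and Cdkn1a higher and Rrm2b lower, beside a background of 19.3% (8.19% higher and 11.1% lower). That pairing by number was read from these data, not from a label. The groups did not overlap for 3 of 9 members, 1 higher (Mdm2) and 2 lower (Ccng1 and Rrm2b), beside 32.1% of all tested genes (13.4% higher and 18.8% lower). Nothing is read from these counts, because the comparison itself helped to choose the genes. Without PLKO 1, PLKO 2, KD 1 or KD 2 no member was called, as no gene of the table was. Without PLKO 3 Mdm2 and Rrm2b were called, beside 801 of all 10770 tested genes. Without KD 3 Trp53, Mdm2 and Rrm2b were called, beside 1744 of all tested genes.

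The order of levels in FPKM changed at 3 places between the groups. FPKM was scaled by the length of all annotated exons of a gene, not of the transcripts in use. The order between genes is therefore approximate. In KD it ran Trp53, Phlda3, Mdm2, Ccng1, Sesn1, Cdkn1a, Mdm4, Zmat3 and Rrm2b, and in PLKO it ran Trp53, Phlda3, Ccng1, Mdm2, Sesn1, Mdm4, Cdkn1a, Rrm2b and Zmat3. Mdm2 thus stood above Ccng1 in KD and below it in PLKO, and in both groups the ranges of the pair were apart. Rrm2b stood below Zmat3 in KD with ranges apart, and the ranges of the pair overlapped in PLKO. Cdkn1a and Mdm4 overlapped in both groups, as did Phlda3 with its lower neighbour. By mean level over all 6 libraries, Trp53 lay above 96.2% of the tested genes, Mdm2 above 76.3% and Rrm2b above 13.3%.

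The place of library 3 within the groups differed between members. Whether members varied together across libraries was not tested. Library 3 was the lowest of both groups for Cdkn1a, Zmat3 and Phlda3, a pattern found in 24.9% of tested genes, and the highest of both for Ccng1 and Sesn1, found in 19.3%. For Trp53, Mdm2, Mdm4 and Rrm2b library 3 held neither place in both groups. KD 3 had the highest Sf3b3 of the KD libraries, at 13.9 FPKM, and held the highest KD value of Ccng1, Sesn1 and Rrm2b and the lowest KD value of the other 6 members. No share over all tested genes is given here for the place of KD 3 within KD alone. With 3 libraries the place of KD 3 is a description, and the part of Sf3b3 level in it was not tested.

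**Figure D3:**
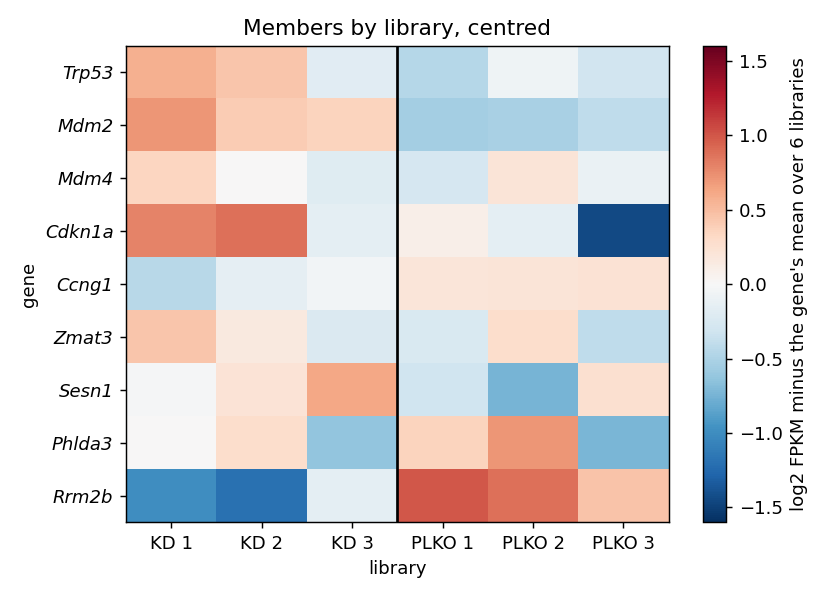
Heat map of log2 FPKM of the 9 genes in the 6 libraries, each gene centred on its own mean over the libraries, KD left and PLKO right of the line. Mdm2 is red in the 3 KD libraries and blue in the 3 PLKO libraries, Rrm2b and Ccng1 run the other way, and Cdkn1a, Zmat3 and Phlda3 are lowest in library 3 of each group.

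Ratios between these genes and close paralogs were computed after the values had been seen and are described without a test. Since FPKM is scaled by all annotated exons of a gene, their size is approximate as a ratio of transcript numbers. Mdm2 and Mdm4 act on p53 as a pair, and Mdm2 exceeded Mdm4 by factors of 4.27, 4.40 and 4.94 in KD 1, 2 and 3, against 2.79, 2.03 and 2.73 in PLKO 1, 2 and 3. The ratio of Mdm2 to Trp53 overlapped between the groups, at 0.252, 0.223 and 0.334 in KD 1, 2 and 3, against 0.218, 0.168 and 0.214 in PLKO 1, 2 and 3. That of Mdm4 to Trp53 was lower in all KD libraries, at 0.0589, 0.0506 and 0.0677, against 0.0782, 0.0830 and 0.0785 in PLKO. Rrm2b was compared with Rrm2, the small subunit used in S phase, whose own means differed by less than their error, at 17.2 FPKM in KD and 17.4 FPKM in PLKO (n = 3 each; log2 fold change 0.00, SE 0.25). Of the FPKM of both small subunit genes, Rrm2b made up 5.17%, 6.18% and 11.7% in KD 1, 2 and 3, against 17.9%, 24.5% and 14.7% in PLKO 1, 2 and 3. The KD shares all lie below the PLKO shares. Mdm2 and Rrm2b were chosen for their differences between the groups. The separation of the groups in the ratios of Mdm2 to Mdm4 and of Rrm2b to Rrm2 follows in part from that choice. Of the FPKM of Cdkn1a and its paralog Cdkn1b, which encodes p27, Cdkn1a made up 36.9%, 30.2% and 16.9% in KD 1, 2 and 3, against 19.8%, 20.98% and 7.63% in PLKO 1, 2 and 3, with overlap at library 3 of KD.

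Genes with the most similar profile were found as those with the smallest root-mean-square difference between centred log2 values over the 6 libraries, among 10081 tested protein-coding genes with a gene name. Nearest to Mdm2 were Plekhh1 (0.057 log2 units), Madd (0.078) and Adnp2 (0.082), with log2 fold changes of 1.05, 0.95 and 0.91. Nearest to Rrm2b were Hemk1 (0.153), Gcnt1 (0.154) and Pcbd2 (0.164), with log2 fold changes of -1.49, -1.39 and -1.52. The nearest genes of Rrm2b were farther from it than those of Mdm2 were from Mdm2. Rrm2b also had the larger coefficient of variation, at 40.3% in KD and 18.8% in PLKO, against 13.3% and 4.71% for Mdm2. The part of this spread in the distance was not tested. Genes that resemble a member that differs between the groups differ themselves, so their fold changes follow from the choice and were given no test.

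The wider pathway was read from 6 lists of other genes, 107 genes in all, of which 97 were tested. None was called over all tested genes, while 24 had an unadjusted limma p under 0.05, against 2977 of all 10770, and their median log2 fold change was -0.07, against -0.04 over all tested genes. With the replicate block 18 of the 97 were called, 7 higher and 11 lower, beside the 19.3% of all genes. Limma-voom on recovered reads called 1 (Gak), beside 316 of all 10770 tested genes. Without KD 3 there were 17 called, beside 1744 of all tested genes, and without PLKO 3 there were 4, beside 801. Without both libraries numbered 3 there were 28, beside 3009 of all tested genes.

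Targets of metabolism, redox and growth control mostly had lower means of log2 FPKM in KD. The list, like the others, was chosen with earlier results of these data known, and it was not tested as a whole. Sesn2 also stands in the list of paralogs and partners. Of 17 tested members 14 had a negative and 3 a positive log2 fold change, the median was -0.45, against -0.04 over all tested genes, and none was called (limma; 7 at an unadjusted p under 0.05, beside 2977 of all 10770 genes). With the replicate block 6 of the 17 were called lower, Ddit4, Tsc2, Fdxr, Sesn2, Gpx1 and Dcxr, and none higher, beside 11.1% of all tested genes called lower and 8.19% higher. The block pairs libraries by number because these same values correlated that way, so its p-values are no independent support. Ddit4, an inhibitor of mTORC1 that also responds to the integrated stress response, averaged 98.2 ± 16.2 FPKM in KD and 255 ± 119 FPKM in PLKO (SD, n = 3 each), a log2 fold change of -1.28 (limma adjusted p = 0.0626, and 0.00758 with the block). Tsc2, a brake on mTORC1 whose locus overlaps Pkd1 on the opposite strand, had a log2 fold change of -1.08 (limma adjusted p = 0.0810, and 0.0128 with the block). Fdxr, the ferredoxin reductase, had -0.98 (limma adjusted p = 0.0967, and 0.0305 with the block). Sesn2, the paralog of Sesn1, averaged 7.27 FPKM in KD and 13.3 FPKM in PLKO, a log2 fold change of -0.92 (limma adjusted p = 0.120, and 0.0150 with the block). Among the 3 sestrin genes the log2 fold change was 0.54 for Sesn1, -0.92 for Sesn2 and -0.58 (SE 0.49) for Sesn3, whose groups overlap, and the differences between these genes were not tested.

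Of the targets of growth arrest and DNA repair, 11 of 16 tested were positive and 5 negative, the median log2 fold change was 0.23, and none was called (limma; 3 at an unadjusted p under 0.05, beside 2977 of all 10770 genes). Plk3, a polo-like kinase of the stress response, averaged 21.2 ± 2.60 FPKM in KD and 11.1 ± 1.90 FPKM in PLKO (SD, n = 3 each), a log2 fold change of 0.93 (limma adjusted p = 0.0550, and 0.0158 with the block). Btg2, an antiproliferative gene that also belongs to the immediate early genes, had 0.60 (limma adjusted p = 0.0930, and 0.0648 with the block), and Ercc5, the endonuclease XPG of nucleotide excision repair, had -0.94 (0.107, and 0.0458 with the block). The block called 3 of the 16, Plk3 and Gtse1 higher and Ercc5 lower, a share near the 19.3% of all tested genes. Gadd45a, named after its values were seen, ran from 8.24 to 38.7 FPKM in KD and from 7.05 to 110.7 FPKM in PLKO. Library 3 was the lowest of both groups, as for Cdkn1a and for 24.9% of tested genes. The log2 fold change of Gadd45a was -0.86 (SE 0.95, limma adjusted p = 0.579), opposite in sign to that of Cdkn1a.

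Targets of cell death showed small differences. Of 12 tested members 8 were positive and 4 negative, with a median log2 fold change of 0.19 and a range from -0.45 to 0.60. None was called, with the replicate block included, beside 2.92% of all tested genes called and 19.3% with the block. None had an unadjusted limma p under 0.05, beside 2977 of all 10770 genes. Those with the lowest p-values were Siva1 at -0.44 (limma adjusted p = 0.196), Ei24 at 0.55 (0.219) and Perp at 0.34 (0.286), all on the log2 scale. Bax and Bbc3, the BCL2 family targets that open the mitochondrial route to apoptosis, stood at 0.19 (SE 0.36) for Bax and 0.20 (SE 0.29) for Bbc3 on that scale; both were named after their values were seen.

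Among the p53 family and its regulators, 12 of 26 tested genes were positive and 14 negative, with a median of -0.08 on the log2 scale. None was called by limma, and 7 had an unadjusted p under 0.05, beside 2977 of all 10770 genes. Yy1, a transcription factor gene, had a log2 fold change of -0.72 (limma adjusted p = 0.110; block 0.0482), and Cop1, another ubiquitin ligase for p53, had -0.70 (0.125, and 0.0729 with the block). With the block 3 of the 26 were called, 1 higher (Hipk2) and 2 lower, Yy1 among them, beside 19.3% of all tested genes. Cdkn2a, whose ARF product holds MDM2 in check, is a regulator named after its values were seen. It had 225, 325 and 336 FPKM in KD 1, 2 and 3, against 416, 393 and 445 FPKM in PLKO 1, 2 and 3, groups that do not overlap, with a log2 fold change of -0.52 (SE 0.22; limma adjusted p = 0.160). The ARF and p16 transcripts of this locus share exons and are summed in the value.

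The median log2 fold change of partners and paralogs of the members was -0.07 over 11 tested genes, 4 positive and 7 negative. None was called by limma, and 3 had an unadjusted p under 0.05, beside 2977 of all 10770 genes. Gak, the cyclin G-associated kinase, averaged 8.22 ± 1.59 FPKM in KD and 19.3 ± 5.83 FPKM in PLKO (SD, n = 3 each), a log2 fold change of -1.20 (limma adjusted p = 0.0502, and 0.00960 with the block). Pcna, the sliding clamp that p21 binds, had 1.05 (0.0810, and 0.0174 with the block). Rrm1, the large subunit that pairs with Rrm2 or Rrm2b, had 0.56 (SE 0.28; limma adjusted p = 0.225). With the block 3 of the 11 were called, Pcna higher and Gak and Sesn2 lower, beside 19.3% of all tested genes.

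Genes that p21 lowers through the DREAM complex, together with members of that complex, gave a median of -0.07 on the log2 scale over 17 tested genes, 8 positive and 9 negative. None was called by limma, and 5 had an unadjusted p under 0.05, beside 2977 of all 10770 genes. Cdk1 and Foxm1, drivers of mitotic entry, stood at 0.82 for Cdk1 (limma adjusted p = 0.0856) and 0.98 for Foxm1 (0.0955), and Cdc25c, the phosphatase that activates CDK1, stood at -0.79 (0.0733). With the block 4 of the 17 were called, beside 19.3% of all tested genes: Cdk1, Foxm1 and Lin9 higher and Cdc25c lower (limma adjusted p = 0.0322, 0.0155, 0.0278 and 0.0320).

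**Figure D4:**
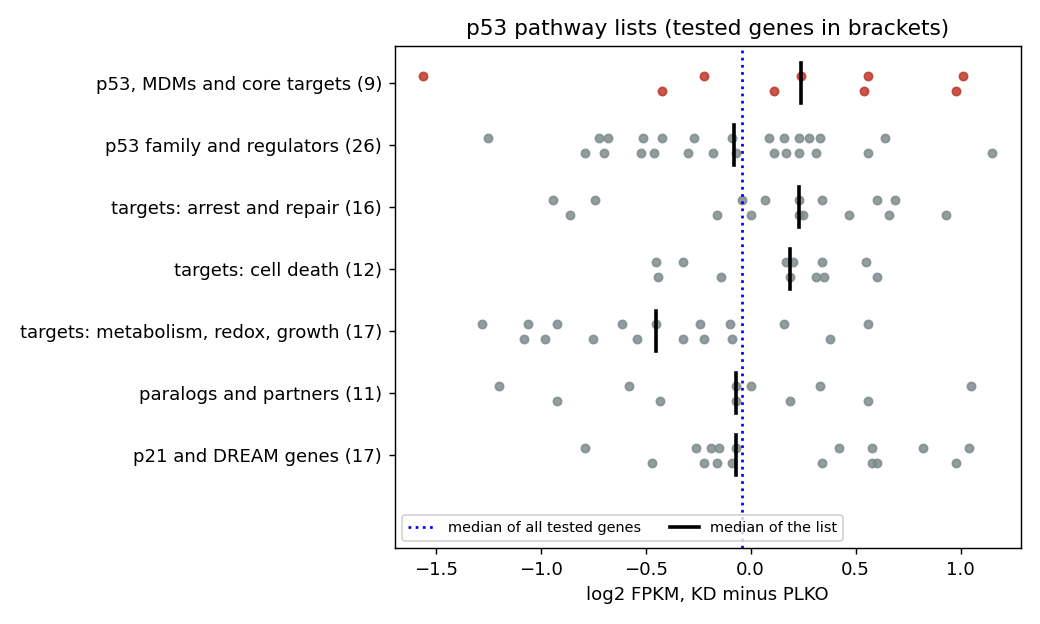
Log2 FPKM difference, KD minus PLKO, of every tested gene of the 9 members (red) and of the 6 pathway lists (grey), with the median of each list (black bar) and of all tested genes (dotted line, -0.04). The metabolism, redox and growth list has its median at -0.45, and the other 5 pathway lists have medians from -0.08 to 0.23. The lists were chosen with earlier results of these data known.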

How the data were processed

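Poly(A) RNA of 3 KD and 3 PLKO libraries was measured. The authors deposited 1 table of log2 FPKM, from -7.85 to 13.17; the scale is read from the values. The submitters' processing notes name GRCm38 and FastQC 0.11.7; aligner, counter, strand use and gene filter were not given in the sources used here. Low values step in whole reads above a prior of on average 2.00 reads per library, and whole reads (tolerance 0.01) were recovered for 100% of 11866 genes, 10962 of them with the GENCODE M21 exonic length. The prior understates changes of genes with few reads.

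The test was limma 3.58.1 (R 4.3.3) on the log2 values as deposited, its prior variance following mean level, with the group as the only term, on the 10770 genes with a mean of at least 1 FPKM, Benjamini-Hochberg adjusted over all of them and called under 0.05. It was checked on simulated data. FPKM are powers of 2 of the deposited values. The 9 genes and the 6 lists were chosen with earlier results of these data known. Named were all members, up to 3 genes per list with the lowest p, and the 3 nearest profiles of Mdm2 and of Rrm2b. For 1 gene that this rule names, the result is not reported here. Deviations from the group means correlated at 0.18, 0.29 and 0.50 for libraries numbered 1, 2 and 3, above the limit of 0.1, so numbers were taken to pair the libraries; the pairing comes from these data, not from a label, and the crossed values of KD 1 with PLKO 2 (0.30) and KD 2 with PLKO 1 (0.27) were above the 0.18 of the libraries numbered 1. The 15 alternatives are described in the closing section.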

Additional observations from a re-analysis of the deposited data

How the results depend on the processing

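Across 15 alternatives Trp53, Mdm2, Cdkn1a, Sesn1, Ccng1, Rrm2b and Zmat3 kept the sign of their difference wherever they were fitted; Mdm4 ran from -0.03 (without KD 1) to 0.25 and Phlda3 from -0.64 (without PLKO 3) to 0.07 (without PLKO 2; 0.03 without KD 3). Mdm2 ran from 0.87 to 1.08, Cdkn1a from 0.54 (without PLKO 3) to 1.34 (without KD 3), and Rrm2b from -2.03 (without both libraries numbered 3) to -1.06 on the log2(FPKM + 1) scale. Zmat3 and Rrm2b were not fitted with a filter at a mean of 5 FPKM.

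The count of 314 called genes ranged from 0 to 3009 with libraries left out: 0 without PLKO 1 (2217 at an unadjusted p under 0.05), PLKO 2 (2315), KD 1 (1818) or KD 2 (1793), 801 without PLKO 3, 1744 without KD 3 and 3009 without both. It was 2080 with the replicate block and 3599 with array weights. In no list was a gene called by the fit without these changes. With the replicate block 3 genes were called among regulators, 3 among arrest and repair targets, 6 among metabolic targets, 3 among paralogs and partners and 4 among p21 and DREAM genes, and none among cell death targets. With array weights these numbers were 7, 5, 6, 4, 7 and, for cell death, 1. With libraries left out the calls ran from 0 to 7, 0 to 4, 0 to 7, 0 to 3, 0 to 6 and, for cell death, 0 to 1. The list of paralogs and partners had 1 call (Gak) on the log2(FPKM + 1) scale, with a filter at 5 FPKM, with median centring and with voom on recovered reads, and the arrest and repair list had 1 (Plk3) with a filter at 5 FPKM and with median centring. The cause was not tested. The median log2 fold change of all genes was -0.04, and 0.01 with quantile normalization and 0.02 with median centring.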
